A study of Mus musculus with 7 samples.

Results

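The Wnt pathway was read in C3H10T1/2 cells exposed to purmorphamine through the 56 genes of the count table that encode its ligands, receptors, antagonists, central transducers and feedback targets, out of 18468 genes listed. The members were chosen by name, as every Wnt, Fzd, Sfrp, Dkk 1 to 4, Rspo and Lgr 4 to 6 gene with a row. With them are 22 further named genes, from Lrp5 and Ror1 to Axin2 and Kremen1. The rule reads names and no values, but the names were chosen with earlier results of these data known. Comparisons of the members with all genes are therefore descriptions. A further 10 family members (Wnt2b, Wnt3, Wnt3a, Wnt7a, Wnt8b, Wnt9b, Wnt10a, Fzd10, Rspo4 and Dkk4) are without a row in the count table and were not analysed here. C3H10T1/2 is a mouse cell line of mesenchymal origin that can be turned toward the osteoblast or the adipocyte. Cells without serum for 12 h were given 2 μM purmorphamine, a small-molecule agonist of Smoothened (Smo), for 48 h (n = 4 libraries, replicates 5 to 8), or 0.02% DMSO as vehicle (n = 3 libraries, replicates 2 to 4), still without serum. Total RNA depleted of ribosomal RNA was sequenced with a stranded kit, and the values are sense-strand reads per gene. All 7 libraries came from the same line, and the labels do not say whether those of a group came from separate cultures, so the p-values measure the spread between libraries, which may be technical.

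Wnt proteins are secreted, lipid-modified ligands that bind Frizzled receptors. With the co-receptors Lrp5 and Lrp6, they stop the destruction of β-catenin, which then enters the nucleus and activates genes with the TCF and LEF factors; with Ror1, Ror2 or Ryk, ligands such as Wnt5a act without β-catenin. R-spondins, through Lgr receptors, strengthen the signal by keeping Frizzled at the cell surface. By contrast, Sfrp proteins, Frzb and Wif1 bind the ligands, and Dkk1 and Dkk2 bind Lrp5 and Lrp6. In mesenchymal cells β-catenin signaling is known to favor osteoblasts over adipocytes.

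The libraries had been brought to the same size by the authors, with totals from 14337225 to 14342154 reads, and a gene at 0 could hold up to 3 reads by counting error alone, which is 0.209 CPM (counts per 1000000 reads). As a check of the agent, Gli1, the transcription factor induced by Hedgehog signaling, had from 7 to 12 reads with vehicle and from 2522 to 3171 with purmorphamine, and Ptch1, the Hedgehog receptor and target, from 504 to 532 and from 10296 to 11451. All 10 markers listed for mesenchymal fibroblasts had at least 50 reads in every library. The set summed to between 26100 and 27600 CPM with vehicle and between 24200 and 26200 with purmorphamine. Single markers moved in both directions. Vim went from between 79220 and 81440 reads to between 41359 and 43378, and Pdgfra from between 10552 and 11060 to between 18354 and 19275. Of the markers of other cell types, the endothelial set (5 of 5 with a row) summed to between 55.2 and 58.5 CPM with vehicle and between 130.0 and 147 with purmorphamine. Nearly all of it was Tek, while Pecam1, Kdr and Emcn had at most 5 reads in any library. Cdh5 had none with vehicle and from 21 to 26 with purmorphamine. The epithelial set (3 of 7 with a row) summed to between 0.996 and 1.63 CPM with vehicle and between 7.6 and 9.35 with purmorphamine, nearly all of it Cdh1, with Krt8 and Krt14 at 0 or 1 read. The adipocyte set (2 of 5 with a row) lay between 3.35 and 4.6 CPM and between 1.3 and 1.93, and the haematopoietic, skeletal muscle and neural sets summed to at most 1.51 CPM in any library. The part of other cells in the results below was not tested, and in bulk RNA fewer cells of a type and less RNA per cell cannot be told apart.

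Of the genes grouped as secreted antagonists, Frzb, Sfrp1, Sfrp2 and Dkk2 were lower with purmorphamine and Dkk3 was higher. Among the ligands, Wnt5a and Wnt9a were higher and Wnt5b and Wnt16 lower. Reported β-catenin targets were called in both directions. Among the members, Tcf7, Lef1, Nkd1, Apcdd1 and Lgr5 were lower, while Znrf3 and Nkd2 were not called. Lgr5, with at most 29 reads in a library, passed the filter on low counts only through its vehicle libraries. Outside the members, 6 of 12 were higher and 6 lower. Of the 56 members, 39 passed the filter on low counts and 17 did not. Of the 39, 11 were higher and 23 were lower at an adjusted p under 0.2, the FDR used in the study (quasi-likelihood test of edgeR, Benjamini-Hochberg adjustment over all 12388 genes tested), and 5 were not called. Over all genes tested, 31.4% were higher and 31.1% lower by the same rule. With a change of at least 1.5-fold added, 6 members were higher and 14 lower, against 7.89% and 7.56% of all genes tested. The median size of the log2 fold change, in either direction, was 0.65 for the members and 0.20 for all genes tested, and 51.3% of the members and 15.5% of all genes had a fitted change of at least 1.5-fold. The signed median was -0.37 for the members and 0.0038 for all genes. In the reads as deposited, before TMM scaling, groups of libraries that did not overlap were found for 34 of the 39 members. Of these, 13 lay above and 21 below, where 29.1% and 20.4% of all genes tested did so. Lrp6 and Ryk are among the 13, although neither was called.

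**Figure D1:**
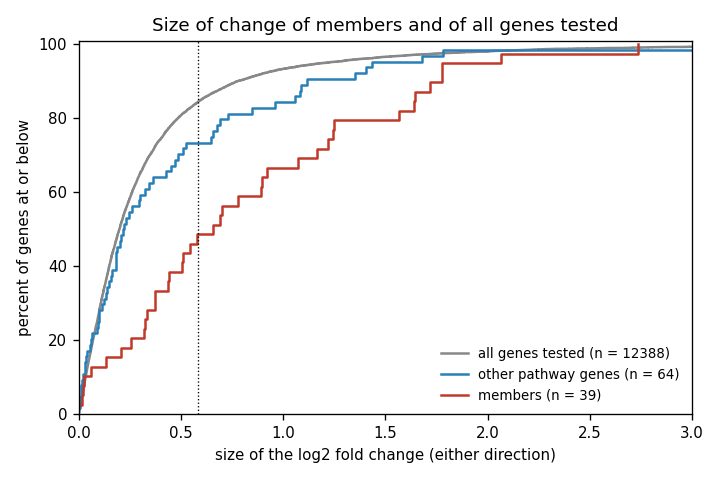
Cumulative share of genes (percent, vertical axis) by the size of the log2 fold change between purmorphamine and DMSO (horizontal axis, either direction), for all 12388 genes tested, the 64 other pathway genes tested and the 39 members tested; the dotted line marks 1.5-fold. The curve of the members lies to the right of the curve of all genes, with medians of 0.65 and 0.20.

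Among the ligands, Wnt5a, the main ligand of signaling without β-catenin, had 606, 670 and 618 reads across the DMSO replicates and 1557, 1549, 1581 and 1516 across those of purmorphamine. The lowest purmorphamine value exceeded the highest DMSO value, and the fold change was 2.46 in the mean reads (631 ± 34.0, SD, n = 3, against 1551 ± 26.9, SD, n = 4). The log2 fold change was 1.25 (standard error, SE, of 0.0523 and an edgeR adjusted p = 4.45e-12). Wnt9a, a ligand known from joints and developing bone, had 40, 42 and 41 reads in DMSO and 127, 146, 134 and 124 in purmorphamine, 3.24-fold more, with a log2 fold change of 1.65 (SE of 0.132 and an edgeR adjusted p = 2e-08). Again the groups did not overlap.

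Wnt5b, the close relative of Wnt5a, moved the other way. In GENCODE M21 (GRCm38), Wnt5a (ENSMUSG00000021994) lies on the plus strand at chr14:28504750-28527448 and Wnt5b (ENSMUSG00000030170) on the minus strand at chr6:119432531-119544347. Wnt5b had 542, 595 and 621 reads in DMSO and 207, 204, 158 and 167 in purmorphamine, 3.18-fold less, and its log2 fold change was -1.72 (SE of 0.0909 and an edgeR adjusted p = 8.71e-11). For these 3 ligands the exact permutation test, with 35 ways to assign the libraries, gave p = 0.0286 (two-sided), the smallest that 3 libraries against 4 allow. Wnt16, a ligand expressed by osteoblasts, had few reads, 36, 42 and 33 with vehicle and 16, 22, 22 and 29 with purmorphamine, and fell by 0.78 on the log2 scale (SE of 0.215 and an edgeR adjusted p = 0.00699). For Wnt16 the exact permutation test gave p = 0.0571. The other 8 ligands with a row were not tested. Wnt2 had from 2 to 6 reads with vehicle and from 6 to 12 with purmorphamine, and Wnt6 had 3 reads in each DMSO library and 5, 8, 15 and 12 with purmorphamine. With no filter on low counts both were called higher (adjusted p = 0.0244 and 0.0133 from edgeR). Wnt1, Wnt4, Wnt7b, Wnt8a, Wnt10b and Wnt11 had at most 5 reads in any library.

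The promoter windows of Wnt5b, Frzb and Sfrp2 are shown because these were the ligand and the antagonists that fell most among members with a window in the RefSeq table of GRCm38.p6. A window reaches from 250 bases before the start of a transcript to 50 bases after it, read 5′ to 3′ on the strand of the gene. Windows were found for 35 of the 56 members. They were searched on both strands for the TCF/LEF core, as CTTTGAT or CTTTGAA, and for the Gli consensus GACCACCCA, and CTTTGAT and CTTTGAA, which share their first 6 letters, cannot match at the same place on a strand. In the Wnt5b window the capitals mark CTTTGAT at bases 180 to 186. It belongs to 1 of 3 starts listed for that gene, and that start is shown because its window holds a motif. The windows at the other starts of Wnt5b, chr6:119467162-119467461 and chr6:119544298-119544597, hold none of the motifs. The windows of Frzb and Sfrp2 also hold none and are in lower case throughout.
Wnt5b, chr6:119449337-119449636, minus strand: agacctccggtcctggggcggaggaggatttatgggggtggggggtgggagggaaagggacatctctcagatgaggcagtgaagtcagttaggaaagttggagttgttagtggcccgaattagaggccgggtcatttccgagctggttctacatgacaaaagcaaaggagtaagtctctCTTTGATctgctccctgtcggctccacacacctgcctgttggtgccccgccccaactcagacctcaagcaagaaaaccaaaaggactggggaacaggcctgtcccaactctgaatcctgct
Frzb, chr2:80447347-80447646, minus strand: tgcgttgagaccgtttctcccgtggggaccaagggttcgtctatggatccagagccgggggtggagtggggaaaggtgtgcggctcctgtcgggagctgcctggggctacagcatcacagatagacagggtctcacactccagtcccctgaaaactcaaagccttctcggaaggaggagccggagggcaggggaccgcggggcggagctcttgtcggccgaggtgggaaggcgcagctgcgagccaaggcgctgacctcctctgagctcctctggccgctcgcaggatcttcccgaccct
Sfrp2, chr3:83766071-83766370, plus strand: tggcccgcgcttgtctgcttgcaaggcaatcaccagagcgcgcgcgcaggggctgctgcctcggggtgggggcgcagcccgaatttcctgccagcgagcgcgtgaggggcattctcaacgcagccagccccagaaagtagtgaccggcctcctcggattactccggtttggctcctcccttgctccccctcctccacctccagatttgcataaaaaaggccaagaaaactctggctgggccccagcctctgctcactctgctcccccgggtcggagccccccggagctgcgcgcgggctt

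Of the 45 windows of the members, 2 held CTTTGAT (Wnt5b and Wnt11), 1 held CTTTGAA (Dkk1) and 0 held GACCACCCA. Over all 32851 windows the shares were 3.73%, 5.14% and 0.253%. Wnt11 and Dkk1 had too few reads to be tested. The median GC content of the members' windows was 66.3% and that of all windows 52.7%. A match of letters is a description of the window and not of binding.

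On a scale that allows levels of genes to be set side by side (CPM after TMM scaling, per kb of exon in GENCODE M21), the summed level of the 12 ligands was 23.3 ± 1.17 with vehicle (SD, n = 3) and 22.2 ± 0.534 under purmorphamine (SD, n = 4). The make-up of that level differed between the groups. Wnt5b contributed 67.3% ± 1.76 of the ligand level with vehicle and 21.4% ± 2.57 with purmorphamine, whereas Wnt5a went from 24.6% ± 1.06 to 61.4% ± 1.43 and Wnt9a from 3.76% ± 0.124 to 12.3% ± 0.652. The ratio of Wnt5a to Wnt5b on this scale was 0.379, 0.382 and 0.338 for DMSO and 2.55, 2.58, 3.39 and 3.08 for purmorphamine (exact permutation test, two-sided, p = 0.0286). Wls, the carrier that brings Wnt ligands to the cell surface, was close to level in the same libraries, with a log2 fold change of 0.0075 (95% interval from -0.083 to 0.098, adjusted p = 0.906 from edgeR). Porcn, the other gene listed for ligand secretion, rose from between 156 and 162 to between 178 and 220 reads. Its log2 fold change was 0.26 (SE of 0.0960 and an edgeR adjusted p = 0.0357).

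**Figure D2:**
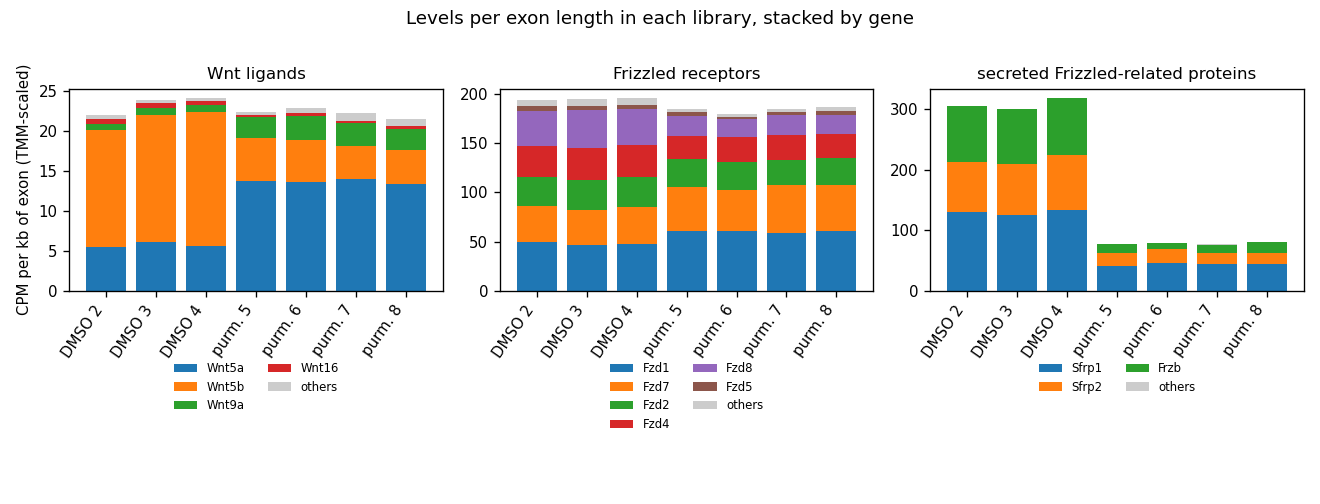
Levels in each library (CPM per kb of exon after TMM scaling, stacked by gene) of the Wnt ligands, the Frizzled receptors and the secreted Frizzled-related proteins, each on its own axis from 0. The total of the ligands was 23.3 and 22.2 with Wnt5a in place of Wnt5b as the largest part, the total of the Frizzled receptors 195 and 184, and the total of the secreted Frizzled-related proteins 308 and 78.4.

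The secreted antagonists held the 2 largest decreases among the members tested, in Frzb (chr2:80411970-80447625, minus strand) and Sfrp2 (chr3:83766321-83774316, plus strand). Frzb, which binds Wnt ligands and is known from cartilage, had 4252, 4202 and 4281 reads in DMSO and 700, 482, 623 and 830 in purmorphamine. The mean went from 4245 ± 40.0 to 659 ± 146, 6.44-fold less, with a log2 fold change of -2.73 (SE of 0.105 and an edgeR adjusted p = 1.51e-12). Sfrp2, of the same family, had 2504, 2556 and 2706 reads in DMSO and 666, 721, 569 and 600 in purmorphamine, 4.05-fold less, with a log2 fold change of -2.07 (SE of 0.0645 and an edgeR adjusted p = 1.63e-13). Sfrp1, the most abundant of them, had 7976, 7744 and 8239 reads in DMSO and 2638, 2908, 2811 and 2777 in purmorphamine, 2.87-fold less, with a log2 fold change of -1.57 (SE of 0.0470 and an edgeR adjusted p = 9.96e-14). In all 3 the groups were far apart relative to their spread (exact permutation test, two-sided, p = 0.0286 for each). Together the 5 secreted Frizzled-related genes with a row (Sfrp1, Sfrp2, Frzb, Sfrp4 and Sfrp5) went from 308 ± 8.91 to 78.4 ± 1.71 CPM per kb, and Sfrp1 took 42.1% of that level with vehicle and 55.9% with purmorphamine.

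Of the Dkk genes, Dkk2, a ligand of Lrp5 and Lrp6, fell from 58, 46 and 64 reads to 21, 31, 24 and 27, a log2 fold change of -1.16 (SE of 0.191 and an edgeR adjusted p = 8.28e-05). Dkk3, a divergent member of the family, rose from 37, 46 and 50 reads to 68, 82, 68 and 56, a log2 fold change of 0.58 (SE of 0.170 and an edgeR adjusted p = 0.0102). The exact permutation test gave p = 0.0286 for Dkk2 and 0.0571 for Dkk3. Dkk1, the best known antagonist of Lrp5 and Lrp6, had 1 read in all 7 libraries together. Wif1 had at most 3 reads in a library, Sfrp5 at most 5 and Sfrp4 at most 6, and none of these passed the filter. In a fit with no filter on low counts Wif1, Sfrp5 and Sfrp4 were each called higher (adjusted p = 0.198, 0.0588 and 0.141 from edgeR), on these few reads. Of the 5 genes tested that were grouped as secreted antagonists, 4 were thus lower and 1, Dkk3, was higher. Over all genes tested, 31.1% were lower and 31.4% higher.

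**Figure D3:**
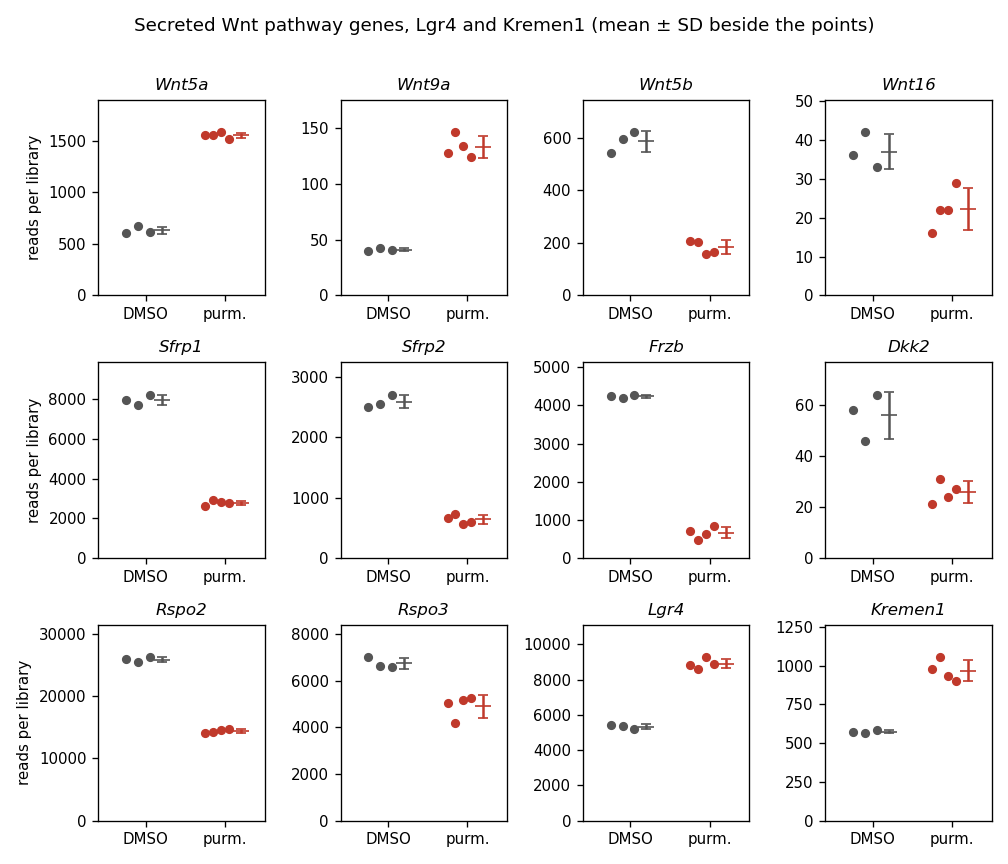
Reads per library (vertical axes, each from 0) of 12 members with DMSO (grey, 3 libraries) and purmorphamine (red, 4 libraries); the horizontal mark and bar beside the points are the mean and SD. In each panel the red points lie wholly above or wholly below the grey ones, with Wnt5a, Wnt9a, Lgr4 and Kremen1 above and the other 8 genes below.

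Rspo2 and Rspo3 fell while Lgr4, their most abundant receptor here, rose. Rspo2 had 25959, 25495 and 26286 reads with vehicle, more than any other member, and 14032, 14321, 14559 and 14799 with purmorphamine. The log2 fold change was -0.89 (SE of 0.0439 and an edgeR adjusted p = 3.67e-11), or 1.80-fold less. Rspo3 had 7007, 6652 and 6569 reads in DMSO and 5024, 4187, 5156 and 5271 in purmorphamine, a log2 fold change of -0.50 (SE of 0.0656 and an edgeR adjusted p = 7.32e-06). Rspo1 had from 3 to 7 reads in both groups and did not pass the filter; with no filter it was not called (adjusted p = 0.866 from edgeR). The summed level of the R-spondins went from 515 ± 9.16 to 304 ± 14.2 CPM per kb.

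Lgr4, the R-spondin receptor of these cells by level (64.5 ± 1.39 CPM per kb with vehicle), had 5429, 5394 and 5192 reads in DMSO and 8834, 8634, 9271 and 8887 in purmorphamine, 1.67-fold more, with a log2 fold change of 0.69 (SE of 0.0459 and an edgeR adjusted p = 1.64e-09). Lgr5, a receptor of the same kind that is itself a β-catenin target, had 29, 22 and 27 reads in DMSO and 9, 7, 13 and 2 in purmorphamine. Its log2 fold change was -1.78 (SE of 0.342 and an edgeR adjusted p = 0.000395). The groups of Lgr5 did not overlap, although the exact permutation test gave p = 0.0571. It passed the filter on low counts only through the vehicle libraries, where it was high. Lgr6 had at most 3 reads in a library.

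All 9 Frizzled receptors were called, 2 higher and 7 lower, where 62.5% of all genes tested were called either way, and 2 of the 9 passed 1.5-fold, where 15.4% of all genes did. Their summed level went from 195 ± 0.844 to 184 ± 2.89 CPM per kb. Fzd1 rose from 2945, 2742 and 2827 reads to 3679, 3717, 3531 and 3722, a log2 fold change of 0.32 (SE of 0.0452 and an edgeR adjusted p = 1.74e-05). Fzd7 rose by as much, from 2321, 2316 and 2333 to 2951, 2792, 3207 and 3069 reads, with a log2 fold change of 0.32 (SE of 0.0518 and an edgeR adjusted p = 6.46e-05). Fzd8 fell from 2996, 3230 and 3048 to 1778, 1551, 1703 and 1707 reads, 1.83-fold, with a log2 fold change of -0.92 (SE of 0.0517 and an edgeR adjusted p = 1.84e-10). Fzd9, at a lower level, fell 3.03-fold, from 125, 144 and 135 to 45, 42, 34 and 57 reads, with a log2 fold change of -1.64 (SE of 0.147 and an edgeR adjusted p = 7.62e-08). In these 4 genes the groups did not overlap.

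The remaining Frizzled genes were all called lower, at smaller sizes. The log2 fold changes were -0.54 for Fzd3, -0.51 for Fzd6, -0.43 for Fzd5, -0.37 for Fzd4 and -0.13 for Fzd2, with adjusted p from 3.5e-06 (Fzd4) to 0.0389 (Fzd2) from edgeR. The groups of Fzd2 overlapped in the deposited reads, from 1519 to 1575 with vehicle and from 1347 to 1524 with purmorphamine. For Fzd2 and for Fzd6 the exact permutation test gave p = 0.0571. By level per kb of exon, Fzd1 (48.0 ± 1.86) led with vehicle, followed by Fzd8 (36.8 ± 1.32) and Fzd7 (36.4 ± 0.285), which did not differ beyond their spread, and then by Fzd4 (32.3 ± 0.791) and Fzd2 (30.1 ± 0.583). With purmorphamine Fzd1 (60.0 ± 1.16) led again, now followed by Fzd7 (45.6 ± 2.89), Fzd2 (27.5 ± 1.41), Fzd4 (25.0 ± 0.864) and Fzd8 (19.4 ± 1.15). The ratio of Fzd7 to Fzd8 went from between 0.945 and 1.02 to between 2.19 and 2.48 (exact permutation test, two-sided, p = 0.0286).

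**Figure D4:**
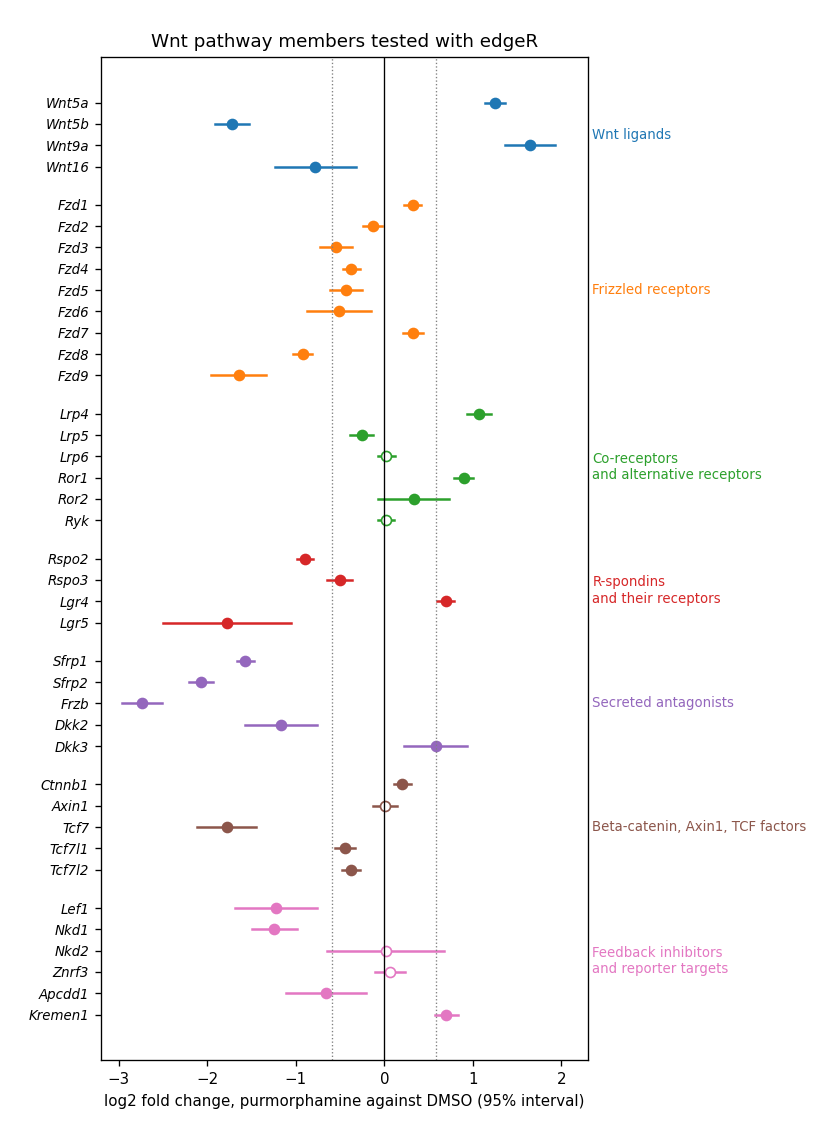
Log2 fold change of the 39 members tested (horizontal axis, purmorphamine against DMSO, points with 95% intervals from edgeR's quasi-likelihood test), grouped by role. Filled points have an adjusted p under 0.2, open points do not, and dotted lines mark 1.5-fold; the values run from -2.73 (Frzb) to 1.65 (Wnt9a).

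Of the co-receptors of β-catenin signaling, Lrp5 was slightly lower and Lrp6 was not called. Lrp6 had 10832, 10983 and 10887 reads in DMSO and 11727, 11170, 11761 and 11150 in purmorphamine, which did not overlap as deposited, but its log2 fold change after TMM scaling was 0.024 (95% interval from -0.070 to 0.12, adjusted p = 0.689 from edgeR). Without that scaling it was 0.072 and was called (adjusted p = 0.184 from edgeR). Lrp5 had 2551, 2765 and 2823 reads in DMSO and 2451, 2429, 2039 and 2489 in purmorphamine, a log2 fold change of -0.25 (SE of 0.0617 and an edgeR adjusted p = 0.0028). Purmorphamine replicate 7 was the lowest, and without it the log2 fold change was -0.19. Lrp4, a relative that binds sclerostin and agrin, rose 2.17-fold, from 393, 417 and 378 to 902, 884, 855 and 798 reads, with a log2 fold change of 1.07 (SE of 0.0639 and an edgeR adjusted p = 4.25e-10).

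Of the receptors that signal without β-catenin, Ror1, a receptor tyrosine kinase that binds Wnt5a, rose 1.93-fold, from 768, 731 and 729 to 1381, 1451, 1471 and 1418 reads, a log2 fold change of 0.90 (SE of 0.0506 and an edgeR adjusted p = 1.93e-10). Ror2, its relative, had 24, 26 and 30 reads in DMSO and 38, 35, 33 and 33 in purmorphamine. Its log2 fold change of 0.33 was called by a narrow margin (adjusted p = 0.161 from edgeR, 95% interval from -0.066 to 0.73). The call was lost with DESeq2 (0.347) and without DMSO replicate 2 (0.370), DMSO replicate 3 (0.286) or purmorphamine replicate 5 (0.268). Ryk, a pseudokinase receptor, had from 2976 to 3033 reads with vehicle and from 3062 to 3196 with purmorphamine, and its log2 fold change was 0.018 (95% interval from -0.071 to 0.11, adjusted p = 0.761 from edgeR). In the reads as deposited, Ror1 and its ligand Wnt5a were both higher in 4 of 4 purmorphamine libraries than in any vehicle library. So were Ror2 and Ryk, and 29.1% of all genes tested.

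Inside the cell, Ctnnb1, which encodes β-catenin, had 14610, 14442 and 14846 reads in DMSO and 18152, 16966, 16963 and 17575 in purmorphamine, 1.19-fold more, with a log2 fold change of 0.20 (SE of 0.0452 and an edgeR adjusted p = 0.00135). Its exons share 23 bases on the same strand with Mir7090, the only such overlap among the members in GENCODE M21. Transcript levels do not measure the stability of the protein, through which Wnt ligands act on it. Axin1, the scaffold of the complex that destroys β-catenin, had from 693 to 766 reads with vehicle and from 679 to 827 with purmorphamine, a log2 fold change of 0.0047 (95% interval from -0.13 to 0.14, adjusted p = 0.963 from edgeR).

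The 4 TCF/LEF factors, the DNA-binding partners of β-catenin, were all called lower, where 31.1% of all genes tested were. Tcf7 fell most, from 102, 97 and 103 to 25, 25, 35 and 36 reads, 3.33-fold, with a log2 fold change of -1.78 (SE of 0.158 and an edgeR adjusted p = 6.76e-08). Lef1, like Tcf7 a factor and a target of the pathway, fell from 49, 50 and 47 to 13, 30, 19 and 24 reads, 2.26-fold, with a log2 fold change of -1.22 (SE of 0.219 and an edgeR adjusted p = 0.000209). Tcf7l1 and Tcf7l2, which made up most of the level of these factors (41.2% and 53.3% with vehicle), fell by 0.44 and 0.37 on the log2 scale (adjusted p = 1.87e-06 and 7.1e-06 from edgeR). Their reads were from 1243 to 1374 and from 951 to 1037 for Tcf7l1, and from 3550 to 4032 and from 2964 to 3117 for Tcf7l2. The summed level of the 4 factors went from 57.5 ± 2.41 to 42.1 ± 0.391 CPM per kb.

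The feedback targets, genes that β-catenin is known to induce and that restrain the pathway, did not move as 1 group. Of those tested, Nkd1 and Apcdd1 were called lower, and Znrf3 and Nkd2 were not called. Nkd1, an inhibitor of Dishevelled, fell from 149, 156 and 130 to 67, 64, 64 and 58 reads, 2.29-fold, with a log2 fold change of -1.24 (SE of 0.119 and an edgeR adjusted p = 1.82e-07). Apcdd1, a membrane protein that binds Wnt ligands and Lrp5, fell by 0.65 on the log2 scale (SE of 0.212 and an edgeR adjusted p = 0.0183), with 63, 36 and 44 reads for DMSO and 26, 38, 31 and 30 for purmorphamine, so that the groups overlapped. For Apcdd1 the exact permutation test gave p = 0.0857. Without DMSO replicate 2, the highest library, the log2 fold change was -0.40. Notum, the enzyme that removes the lipid of Wnt ligands, had 9, 9 and 14 reads in DMSO and 4, 4, 7 and 1 in purmorphamine, and did not pass the filter (exact permutation test, two-sided, p = 0.0571). With no filter it was called lower (adjusted p = 0.0193 from edgeR).

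Axin2, the gene most often used to report β-catenin activity, had 4 reads in each of the 3 vehicle libraries and 0, 5, 8 and 5 with purmorphamine. It did not pass the filter, and with no filter it was not called (log2 fold change 0.12, adjusted p = 0.898 from edgeR). Rnf43, a ligase that removes Frizzled from the cell surface, had at most 1 read in a library. Znrf3, its relative, had 283, 296 and 250 reads in DMSO and 314, 290, 294 and 293 in purmorphamine, a log2 fold change of 0.061 (95% interval from -0.11 to 0.23, adjusted p = 0.566 from edgeR). Nkd2 had 22, 14 and 15 reads and 10, 27, 18 and 16, with a log2 fold change of 0.015 (95% interval from -0.64 to 0.67, adjusted p = 0.976 from edgeR), so that a change of 1.5-fold either way lies within the interval. Kremen1, grouped with these genes, is the receptor through which Dkk1 and Dkk2 clear Lrp5 and Lrp6. It rose 1.68-fold, from 571, 567 and 584 to 978, 1053, 932 and 898 reads, with a log2 fold change of 0.70 (SE of 0.0612 and an edgeR adjusted p = 5.48e-08).

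**Figure D5:**
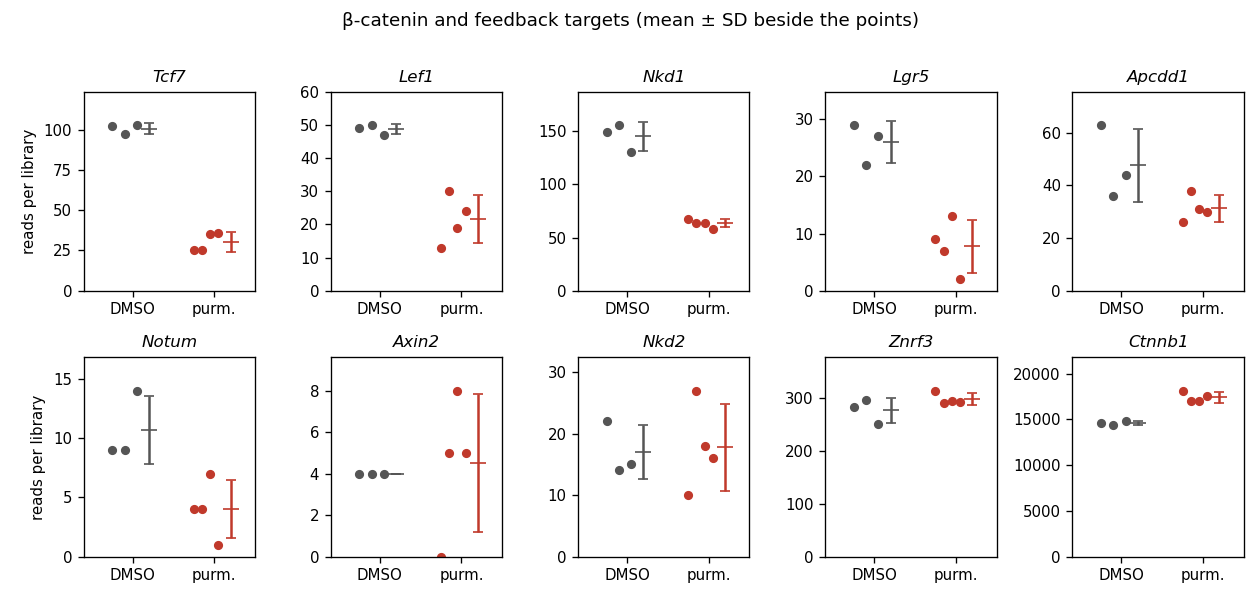
Reads per library (vertical axes, each from 0) of 10 members: feedback targets, TCF/LEF factors and Ctnnb1, with DMSO (grey, 3 libraries) and purmorphamine (red, 4 libraries); the mark and bar beside the points are the mean and SD. Tcf7, Lef1, Nkd1, Lgr5 and Notum lie lower with purmorphamine with no overlap, Axin2, Nkd2, Znrf3 and Apcdd1 overlap, and Ctnnb1 lies higher.

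Other genes of the pathway, from a list of 74 with a row, were called in both directions. Of the 64 tested, 23 were higher and 23 lower at an adjusted p under 0.2 from edgeR, against 31.4% and 31.1% of all genes tested, and the median size of their log2 fold change was 0.22. Over all genes tested, 62.5% were called either way and 15.4% were called past 1.5-fold. The 18 genes of Dishevelled and the destruction complex had 6 higher and 6 lower, and none was called past 1.5-fold. The 12 reported β-catenin targets tested outside the members had 6 higher and 6 lower, and all were called. Past 1.5-fold, 5 of them were higher and 3 lower. Among these, Bambi fell from between 401 and 439 to between 112 and 133 reads, Wisp1 from between 1001 and 1089 to between 382 and 428, and Myc from between 354 and 415 to between 132 and 168. Their log2 fold changes were -1.78, -1.44 and -1.35 (adjusted p = 2.55e-11, 4.23e-12 and 2.65e-09 from edgeR). Ccnd1, the cyclin of entry into the cell cycle and also a target of Hedgehog signaling, rose from between 2723 and 2948 to between 9051 and 9946 reads, a log2 fold change of 1.68 (adjusted p = 1.1e-13 from edgeR). Fgf18, Jag1, Cd44 and Twist1 were the others that rose past 1.5-fold, by 0.846, 0.693, 0.655 and 0.645 on the log2 scale. Sostdc1, a secreted antagonist of Wnt and BMP signaling, had 0 reads in DMSO and 156, 115, 151 and 150 in purmorphamine, at least 47.7-fold higher against 3 reads per library (adjusted p = 1.39e-10 from edgeR). It was thus an antagonist outside the members that moved opposite to Frzb, Sfrp1, Sfrp2 and Dkk2.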

How the data were processed

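Per the study's methods, the authors sequenced single reads from stranded libraries of total RNA depleted of ribosomal RNA, resampled the reads to equal numbers per library and deposited counts, as whole sense-strand reads per gene. The submitters' processing notes name STAR 2.5.3a and mm9. The annotation is not given in the sources used here. No per-sample column was left unused. The members and gene lists were chosen with earlier results of these data known.

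From the counts, edgeR 4.0.16 in R 4.3.3 took TMM factors (0.978 to 1.02) and its default filter (a minimum of 10 counts and a total of 15), which left 12388 genes, and then compared purmorphamine with DMSO by its quasi-likelihood test, without covariates. Calls needed an adjusted p under 0.2. Each standard error (SE) is the size of the log2 fold change divided by the square root of F. The exact permutation test compared mean log2 reads after TMM scaling, with 1 read added, over 35 assignments. Means ± SD and ratios of means use the reads as deposited. Lengths are unions of exons in GENCODE M21 (GRCm38), matched by Ensembl ID, which may differ from the annotation the authors counted on. The table's coordinates are of another build and were not used.

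Members were described by role. Values in every library were given for members called with a change of at least 1.5-fold and a mean of at least 50 reads in 1 group, and, whatever their value, for Wnt5a, Lrp5, Lrp6, Ctnnb1, Axin2, Lef1, Tcf7, Nkd1, Nkd2, Znrf3, Rnf43, Apcdd1, Notum and Lgr5. Library values of further members were added after they had been seen. Of the other pathway genes, the 5 with the largest change past the same rule were named. Wls, Porcn, Fgf18, Jag1, Cd44 and Twist1 were added after their values had been seen. Alternatives were library totals alone, DESeq2 size factors, DESeq2 1.42.0, limma-voom (limma 3.58.1), a looser and a tighter low-count filter, tighter thresholds, and fits that each omit 1 library. The calculations were tested on simulated counts.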

Additional observations from a re-analysis of the deposited data

Results flagged for a closer look

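For 2 members, 1 of the 4 purmorphamine libraries stood apart from the other three after TMM scaling. For Lrp5, replicate 7 lay below the others, and its gap to the nearest of them made up 0.848 of the whole range. For Rnf43, replicate 5, with 0 reads against 1 read in each of the others, gave a gap of 0.988 of the range, in a gene with at most 1 read in any library. Both exceed the 95% critical value of Dixon's test for 4 libraries, which chance passes in about 1 in 20 groups, with 42 genes examined.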

How the results depend on the processing

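Of the 39 members tested, 34 kept their direction and their call in every alternative that tested them. Of 545 values under 14 settings, 531 stayed on the same side of the threshold in the same direction. Lgr5 was not tested where 10 reads were required in every library, which left 22 rather than 23 members lower. The 1.5-fold threshold is not among the 14 settings. Asking for 1.5-fold beside the adjusted p left 6 of 11 members higher and 14 of 23 lower. With no filter on low counts, 11 rather than 6 members were higher by at least 1.5-fold, the added ones being Wnt2, Wnt6, Sfrp4, Sfrp5 and Wif1, which have few reads. The median log2 fold change of the members, -0.37, was -0.33 with library totals alone, which moved the median of all genes by 0.0474, and -0.14 with no filter. With each library left out it ran from -0.38 to -0.33 (without DMSO replicate 3), members higher from 10 to 13, members lower stayed at 23, and those past 1.5-fold ran from 6 to 9 and from 13 to 14.

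The sign turned only in genes that were not called. Axin1 ran from -0.0282 to 0.0588 with each library left out, below 0 without DMSO replicate 4 and, at -0.0274, without purmorphamine replicate 6. Nkd2 was at -0.0409 with limma-voom, -0.11 and -0.0607 without DMSO replicates 3 and 4, and -0.2474 without purmorphamine replicate 6, and its highest value was 0.2465, without DMSO replicate 2. Znrf3 ran from -0.0001, without DMSO replicate 4, to 0.109. Ror2 lost its call in 6 settings and Lrp6 gained one with library totals alone. The cause of these changes was not tested. With the length of the longest transcript, a choice made after seeing the data, the summed ligand level was 26.05 with vehicle and 24.5 with purmorphamine, and the share of Wnt5a 24.58% and 62.01%, and of the 4 classes recomputed the R-spondin level moved most, from 515 to 707.1 with vehicle and from 304 to 406.9 with purmorphamine.

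No paired analysis was possible because replicates 2 to 4 are all DMSO and 5 to 8 all purmorphamine. The depth limits the 17 members with few reads, among them Axin2, Rnf43, Dkk1 and Wif1.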
